A study of Rattus norvegicus with 9 samples.

Results

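Established endothelial markers, 10 in all, were followed through the liver arrays, 5 of the fenestrated sinusoidal endothelium (Stab1, Stab2, Lyve1, Clec4g and Fcgr2b) and 5 of endothelium in general or of larger vessels (Pecam1, Vwf, Cd34, Kdr and Plvap). They were chosen by name, with earlier results of these data known. Of the 10, 8 were matched to the table by symbol or gene identifier, 4 of each kind, out of 14377 genes that have a probe set of their own. Clec4g and Cd34 were not analysed here. The arrays (Affymetrix rat expression arrays) measured total RNA from frozen liver of male Sprague-Dawley rats in 3 groups of 3 arrays. The vehicle rats are the controls without CCl4. The CCl4 rats were injected intraperitoneally with CCl4 in olive oil for 8 weeks, a standard way to scar the rat liver. The CCl4+Rot rats received the same CCl4 and, starting 2 weeks after the first injection, rottlerin at 2.5 mg/kg, a compound used as an opener of BK potassium channels, so that both injured groups share the CCl4 exposure. The rats' age and the composition of the vehicle are not given in the sources used here.

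Liver sinusoids are lined by an unusual endothelium, which is perforated by open pores, lacks an organised basement membrane and clears waste molecules from the blood through scavenger receptors. In scarring livers this lining can lose its pores and take on features of ordinary capillaries, a process called capillarisation, in which scavenger receptors are reduced and proteins such as von Willebrand factor, CD34 and PLVAP appear along the sinusoids. The markers therefore fall into 2 groups that are often read against each other. The question put to the arrays was whether the sinusoidal receptors were lower and the vascular markers higher after CCl4, and whether rottlerin-treated livers differed. Pecam1 and Kdr are not among the proteins just named, so medians over the vascular markers mix them with Vwf and Plvap.

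limma called 0 of the 8 measured markers between any pair of groups, but it also called few probe sets of any kind: 0.0% of 31042 between CCl4 and vehicle, 0.00322% between CCl4+Rot and CCl4, and 0.0258% between CCl4+Rot and vehicle. Levels of the sinusoidal receptors overlapped between vehicle, CCl4 and CCl4+Rot livers. On the deposited scale no receptor differed by as much as 1.5-fold between group means, while centring each array on its median took Lyve1 to -0.66 for CCl4 minus vehicle and 0.60 for CCl4+Rot minus CCl4 on the log2 scale. Uncentred, these Lyve1 differences were -0.30 and 0.36, and 0.04 and 0.01 without CCl4 replicate 3, an array described below. Kdr, the main receptor for vascular endothelial growth factor, was 0.34 lower on the log2 scale in CCl4 than in vehicle livers, and the arrays of the 2 groups did not overlap. Vwf was called present only in CCl4+Rot livers, on 2 of 3 arrays, and all 3 lay above every array of the other groups. Neither difference passed the adjusted test, and groups that do not overlap were common, at 18.3% of probe sets between CCl4 and vehicle, 11.6% between CCl4+Rot and CCl4 and 21.1% between CCl4+Rot and vehicle.

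Promoter windows of Lyve1 and Kdr are shown because these were the markers, among those present on every array, with the widest range of group means, 0.36 for Lyve1 and 0.34 for Kdr on the log2 scale. Each is the 250 bases before the RefSeq start site, read 5′ to 3′ on the gene's own strand in build GRCr8, with the letters GGAAG or their reverse complement CTTCC in capitals, the core of the sites bound by ETS factors such as ERG, which are known regulators of endothelial genes. The Lyve1 window lies at chr1:174410978-174411227 on the minus strand, and the Kdr window at chr14:32571813-32572062 on the plus strand.

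Lyve1: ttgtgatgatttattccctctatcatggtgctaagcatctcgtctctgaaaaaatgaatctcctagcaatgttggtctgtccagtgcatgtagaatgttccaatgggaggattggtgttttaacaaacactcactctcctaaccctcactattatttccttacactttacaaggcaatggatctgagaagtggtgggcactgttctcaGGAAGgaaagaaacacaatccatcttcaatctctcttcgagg

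Kdr: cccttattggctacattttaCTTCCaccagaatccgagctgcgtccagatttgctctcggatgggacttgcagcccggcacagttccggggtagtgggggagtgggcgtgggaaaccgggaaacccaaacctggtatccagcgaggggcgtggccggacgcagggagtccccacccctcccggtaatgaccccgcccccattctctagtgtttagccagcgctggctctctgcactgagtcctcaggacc

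RefSeq windows were matched for 7 of the 10 markers, namely Stab1, Stab2, Lyve1, Clec4g, Cd34, Kdr and Plvap. Vwf, Pecam1 and Fcgr2b were not matched. The ETS letters GGAAG, searched on both strands, occurred in 6 of the 7 windows, against 63.3% of 33469 rat promoter windows of the same length. The GATA letters AGATAA occurred in 0 of 7, against 10.3% of all windows, and the Sp1 letters GGGCGG in 3 of 7, against 30.5%. The GATA and the Sp1 letters can each overlap the ETS letters at one end. These counts describe the windows and say nothing of binding.

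Each array gave a log2 signal and a detection call of present, marginal or absent for each probe set, a set of short probes for 1 transcript. All arrays had been scaled to the same trimmed mean of 500, and 50.1% to 54.3% of the 31042 probe sets tested were called present on 8 of the 9 arrays. CCl4 replicate 3 stood apart, with 41.0% called present and a median log2 signal of 7.81 over all probe sets, against 6.79 to 7.01 on the others. Over the 11231 probe sets present on every array its median was 9.53, within the range of 9.51 to 9.58 over all 9. Several results that rest on this array are therefore also given without it, but not the list medians, the likeness or most list genes. Group differences were tested with limma, p values were adjusted over all probe sets by the Benjamini-Hochberg method, and a call needed both an adjusted p under 0.05 and a difference of 1.5-fold or more. An exact permutation test of 3 arrays against 3 cannot give a two-sided p below 0.1. Because the liver was measured in bulk, fewer endothelial cells and less RNA per endothelial cell cannot be told apart.

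The sinusoidal receptors come first. Stab1 (gene 100363145, chromosome 16 as the table lists it) encodes stabilin-1, a scavenger receptor of sinusoidal endothelium that macrophages also make. Its log2 signal was 8.98, 8.66 and 8.60 in vehicle livers, 9.05, 8.72 and 8.64 in CCl4 livers, and 8.83, 8.89 and 9.13 in CCl4+Rot livers, called present on all 9 arrays. The 3 groups overlapped throughout. Vehicle livers had a mean of 8.75 ± 0.203 (SD, n = 3), CCl4 livers 8.81 ± 0.218 and CCl4+Rot livers 8.95 ± 0.163. CCl4 minus vehicle was 0.06 on the log2 scale, with a 95% interval from -0.39 to 0.51 that does not reach 1.5-fold in either direction (limma adjusted p = 0.913). CCl4+Rot minus CCl4 was 0.14 (95% interval -0.31 to 0.60, adjusted p = 0.869 by limma).

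Stab2 (gene 282580, chromosome 7) encodes stabilin-2, the hyaluronan scavenger receptor and among the most specific markers of this lining. Signals were 10.56, 10.17 and 10.04 in vehicle, 10.42, 10.84 and 10.28 in CCl4, and 10.57, 10.34 and 10.82 in CCl4+Rot livers, all present. The vehicle array with the highest value lay inside the range of both injured groups, and the groups overlapped. Means were 10.26 ± 0.272 (SD, n = 3), 10.52 ± 0.290 and 10.58 ± 0.238, in the order vehicle, CCl4, CCl4+Rot, and neighbours in that order differed by less than their spread. The difference CCl4 minus vehicle was 0.26 (95% interval -0.29 to 0.81, limma adjusted p = 0.669), and CCl4+Rot minus vehicle was 0.32 (95% interval -0.23 to 0.87, limma adjusted p = 0.835).

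Lyve1 (gene 293186, chromosome 1) encodes a hyaluronan receptor shared by liver sinusoids, lymphatic vessels and some macrophages. Its log2 signal was 12.15, 11.78 and 11.94 in vehicle, 11.84, 12.15 and 10.96 in CCl4, and 11.90, 12.22 and 11.91 in CCl4+Rot livers, present on all 9. CCl4 replicate 3 lay below all other arrays, and the other 8 lay between 11.78 and 12.22. The mean difference CCl4 minus vehicle was -0.30 (95% interval -1.02 to 0.42, limma adjusted p = 0.707) and turned to 0.04 without CCl4 replicate 3, while CCl4+Rot minus CCl4 moved from 0.36 to 0.01. A second Lyve1 probe set, also present on every array, read 11.70, 11.67 and 10.76 in CCl4 livers and 11.51 to 11.56 in vehicle livers, so the low array was low by both probe sets.

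Fcgr2b (gene 289211, chromosome 13) encodes the inhibitory Fc gamma receptor, which clears small immune complexes in the sinusoid and is also found on B cells and macrophages. Arrays read 11.21, 11.41 and 11.55 in vehicle, 11.44, 11.59 and 10.91 in CCl4, and 11.52, 11.58 and 11.50 in CCl4+Rot livers, all present. CCl4 replicate 3 again held the lowest value. CCl4 minus vehicle was -0.08 (95% interval -0.57 to 0.42, limma adjusted p = 0.894) and 0.12 without that array, and CCl4+Rot minus CCl4 was 0.22 (95% interval -0.27 to 0.72, limma adjusted p = 0.816) and 0.02 without it. The spread within CCl4+Rot livers was small, at an SD of 0.0439 (n = 3), against 0.355 in CCl4 livers.

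Cells that share these receptors were checked with marker lists. The macrophage list (6 of 9 genes measured, all 6 present on every array) had a mean log2 signal of 10.30 to 10.92 in vehicle livers, 10.58 to 11.05 after CCl4 and 10.96 to 11.47 after CCl4+Rot. It was thus highest in CCl4+Rot livers, where Stab1, Stab2, Lyve1 by its brighter probe set, and Fcgr2b also had their highest means. The second Lyve1 probe set was highest in vehicle livers, at a mean of 11.53 against 11.38 after CCl4 and 11.45 after CCl4+Rot. The part of the macrophage list in the receptors' values was not tested. The B cell list (3 of 6 genes measured, 0 present on every array) ran from 5.07 to 6.45 in vehicle livers, 5.46 to 6.01 after CCl4 and 5.73 to 5.93 after CCl4+Rot. The hepatocyte list, which checks the labelled tissue, was present in full on all 9 arrays, at 14.54 to 14.67 in vehicle livers, 13.91 to 14.70 after CCl4 and 14.51 to 14.61 after CCl4+Rot.

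**Figure D1:**
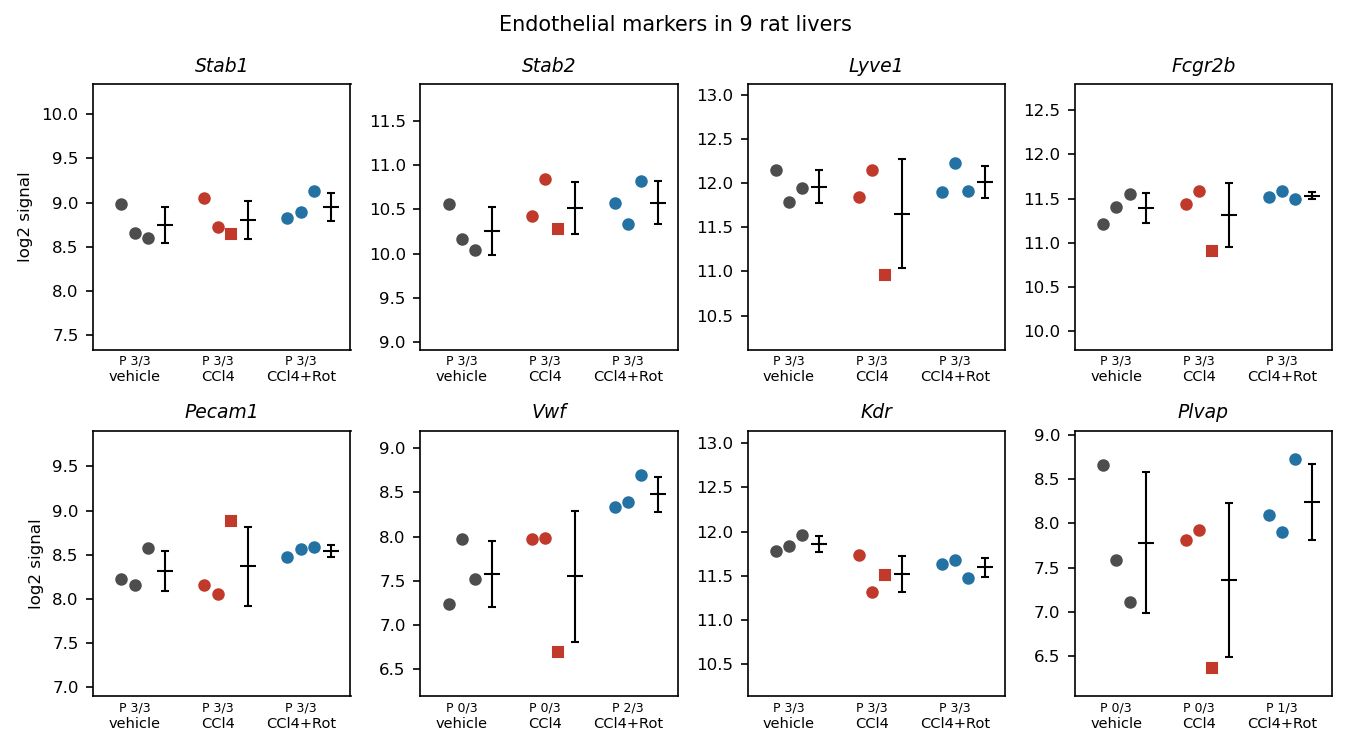
Log2 signal of the 8 measured markers, each point 1 array, for vehicle (grey), CCl4 (red) and CCl4+Rot (blue) livers, with the group mean and SD (n = 3) to the right of the points. The red square is CCl4 replicate 3, and P gives the arrays of the group called present. The sinusoidal receptors in the upper row overlap between all groups, and in the lower row the Kdr points of vehicle lie above both injured groups and the Vwf points of CCl4+Rot above both others.

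Among the vascular markers, Pecam1 (gene 29583, chromosome 10) encodes CD31, an adhesion molecule at the junctions of all endothelium and on platelets and leukocytes. On the log2 scale it read 8.22, 8.16 and 8.58 in vehicle, 8.16, 8.06 and 8.88 in CCl4, and 8.47, 8.57 and 8.59 in CCl4+Rot livers, all present. The highest value of all 9 arrays was CCl4 replicate 3, and the groups overlapped. CCl4 minus vehicle was 0.05 (95% interval -0.54 to 0.63, limma adjusted p = 0.951) and CCl4+Rot minus CCl4 was 0.18 (95% interval -0.41 to 0.76, limma adjusted p = 0.874). Without CCl4 replicate 3 these were -0.21 and 0.43, and the CCl4+Rot arrays then all lay above the 2 remaining CCl4 arrays.

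Kdr (gene 25589, chromosome 14) encodes VEGF receptor 2, through which VEGF drives endothelial growth and survival and keeps sinusoidal pores open. The log2 signal of Kdr was 11.78, 11.84 and 11.96 in vehicle, 11.73, 11.32 and 11.51 in CCl4, and 11.63, 11.68 and 11.47 in CCl4+Rot livers, present on every array. Every vehicle array lay above every CCl4 array and every CCl4+Rot array, and the 2 injured groups overlapped. Means were 11.86 ± 0.0900 (SD, n = 3), 11.52 ± 0.206 and 11.59 ± 0.111. CCl4 minus vehicle was -0.34 ± 0.169 (SE; 95% interval -0.74 to 0.05, limma adjusted p = 0.455), a ratio of 0.789, and ran from -0.45 to -0.24 when each array was left out. CCl4+Rot minus vehicle was -0.27 (95% interval -0.66 to 0.13, limma adjusted p = 0.793). CCl4+Rot minus CCl4 was 0.08, with an interval from -0.32 to 0.47 that does not reach 1.5-fold (limma adjusted p = 0.921). A second Kdr probe set was called present on 0 of 9 arrays and gave no reading.

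Vwf (gene 116669, chromosome 4) encodes von Willebrand factor, the clotting protein stored by endothelium of larger vessels and by platelets. Its log2 signal was 7.24, 7.97 and 7.52 in vehicle, 7.97, 7.99 and 6.69 in CCl4, and 8.34, 8.39 and 8.70 in CCl4+Rot livers. It was called present on 0 of 3 vehicle, 0 of 3 CCl4 and 2 of 3 CCl4+Rot arrays (replicates 5 and 6), so no fold is given for CCl4 against vehicle. Where 1 group has no present call, a bound was sought from the floor of each dim array (its lowest present signal), used wherever the probe set read under it. These floors, 2.31 to 3.64 on the log2 scale, lay below every Vwf and Plvap signal. The bounds therefore equal the measured ratios, which are estimates and not lower limits. CCl4+Rot livers were at least 1.90-fold above CCl4 livers (limma adjusted p = 0.750) and at least 1.87-fold above vehicle livers (limma adjusted p = 0.592). All 3 CCl4+Rot arrays exceeded all 6 others, but the fitted difference from CCl4, 0.92 on the log2 scale, was 0.49 without CCl4 replicate 3. The unadjusted test named in the methods called Vwf between CCl4+Rot and vehicle, and 0 probe sets were left after its Benjamini-Hochberg adjustment.

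The platelet list, which bears on Vwf, held 4 of 5 genes, 0 of them present on every array and Gp9 and Ppbp present on none. Its mean log2 signal was 6.83 to 7.05 in vehicle livers, 6.35 to 7.14 after CCl4 and 6.48 to 7.06 after CCl4+Rot. Its part in the Vwf values was not tested.

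Plvap (gene 56765, chromosome 16) encodes the protein of the diaphragms that close endothelial pores, which normal sinusoids lack. Plvap read 8.66, 7.58 and 7.11 in vehicle, 7.81, 7.92 and 6.36 in CCl4, and 8.10, 7.90 and 8.73 in CCl4+Rot livers, with a present call on 1 of the 9 arrays, CCl4+Rot replicate 6. The groups overlapped, and the vehicle arrays (SD 0.795, n = 3) spread nearly as widely as the CCl4 arrays (SD 0.872). CCl4+Rot livers were at least 1.84-fold above CCl4 livers (limma adjusted p = 0.765) and at least 1.37-fold above vehicle livers (limma adjusted p = 0.928). The CCl4+Rot mean includes 2 arrays not called present. The fitted difference from CCl4, 0.88, was 0.38 without CCl4 replicate 3. The fitted difference from vehicle, 0.46, was 0.12 without vehicle replicate 5, 0.21 without CCl4+Rot replicate 6 and 0.90 without vehicle replicate 3.

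Read by kind, the 4 sinusoidal receptors had a median log2 difference of -0.01 for CCl4 minus vehicle, 0.18 for CCl4+Rot minus CCl4 and 0.17 for CCl4+Rot minus vehicle. The 4 vascular markers had medians of -0.18, 0.53 and 0.34. Without CCl4 replicate 3 the sinusoidal medians were 0.13 for CCl4 minus vehicle and 0.02 for CCl4+Rot minus CCl4, and the vascular ones -0.06 and 0.40. Over all probe sets the medians were 0.18, -0.12 and 0.01, and over those present on every array -0.01, 0.02 and -0.01. The vascular medians above 0 came from Vwf and Plvap, which were called present on few arrays or none: over Pecam1 and Kdr alone the medians were 0.13 for CCl4+Rot minus CCl4 and -0.02 for CCl4+Rot minus vehicle.

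At an unadjusted p below 0.05 limma had 0 of 8 markers between CCl4 and vehicle, 1 between CCl4+Rot and CCl4 and 1 between CCl4+Rot and vehicle, Vwf in both cases. Over all 31042 probe sets the counts at that level were 3837, 2057 and 2580 in the same order. Over all fits with adjustment, the markers' adjusted p ran from 0.241 to 1.0. The groups did not overlap for 1 of 8 markers between CCl4 and vehicle (Kdr, lower), against 18.3% of all probe sets and 25.4% of those present on every array. The same held for 1 of 8 between CCl4+Rot and CCl4 (Vwf, higher), against 11.6% and 12.9%, and for 2 of 8 between CCl4+Rot and vehicle (Vwf higher, Kdr lower), against 21.1% and 29.6%. The markers' shares were near these backgrounds. Without CCl4 replicate 3, 2 of 8 markers were separated between CCl4 and vehicle (Vwf higher, Kdr lower), against 30% of all probe sets, and 2 of 8 between CCl4+Rot and CCl4 (Pecam1 and Vwf, higher), against 22.8%.

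**Figure D2:**
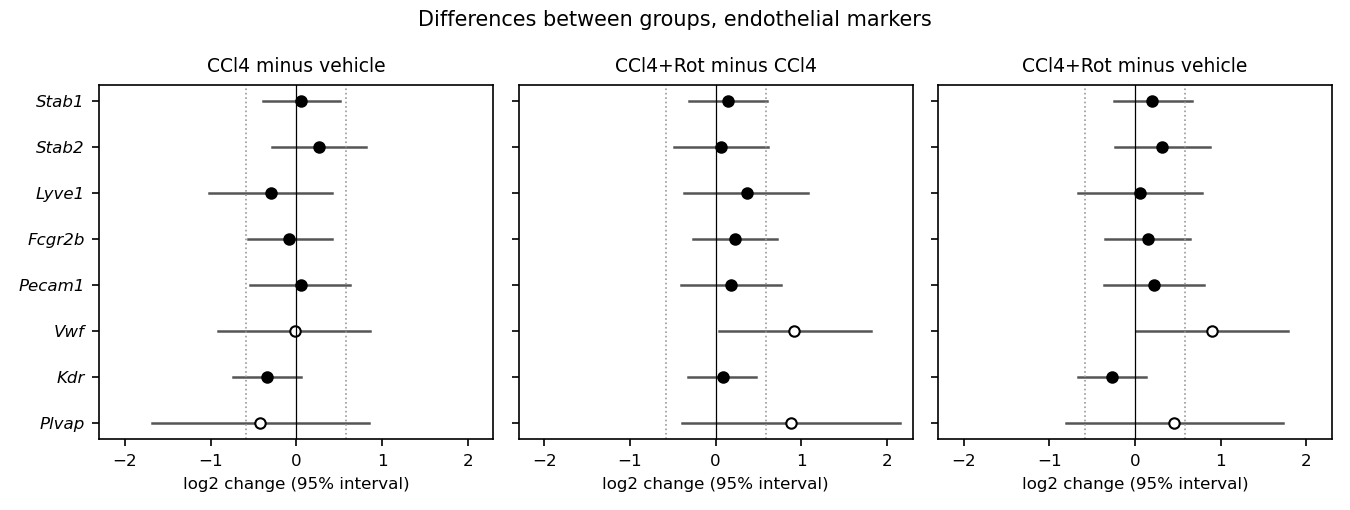
Log2 difference between group means (horizontal axis) with its 95% interval from limma, for each marker in the 3 comparisons. Open circles mark comparisons in which at least 1 group has no present call, and dotted lines mark 1.5-fold. The intervals of Vwf in CCl4+Rot against CCl4 and against vehicle end just above 0, at 0.04 and 0.01, all others cross 0, and those of Plvap are the widest.

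Other genes listed here for the same endothelium gave no more calls. Which liver cells made these transcripts was not tested. Of 15 measured genes of sinusoidal identity (of 18 listed; Wnt9b, Oit3 and Cd36 were not analysed here), 12 were present on every array and 0 were called by limma in any comparison, with 3 at an unadjusted p below 0.05 between CCl4 and vehicle, 0 between CCl4+Rot and CCl4, and 1 between CCl4+Rot and vehicle. Over all 31042 probe sets, 3837, 2057 and 2580 reached that level in these comparisons. Between CCl4 and vehicle, the groups did not overlap for 2 genes higher and 2 lower, against 18.3% of all probe sets. Wnt2, a Wnt ligand made by sinusoidal endothelium that patterns hepatocytes, had log2 signals of 6.5, 6.39 and 6.72 in vehicle, 7.36, 7.34 and 7.89 in CCl4, and 7.39, 7.49 and 6.88 in CCl4+Rot livers. Both injured groups lay above vehicle, by 0.99 in CCl4 livers (limma adjusted p = 0.233) and by 0.71 in CCl4+Rot livers (limma adjusted p = 0.462), and a second Wnt2 probe set gave 1.12 and 0.35. Dnase1l3, a secreted DNase, was 0.45 lower in CCl4 than in vehicle livers on the log2 scale, at 11.35 ± 0.149 against 11.79 ± 0.148 (SD, n = 3 each; limma adjusted p = 0.358). Colec11, a soluble lectin, was at 11.51 ± 0.109 against 11.96 ± 0.0459 (limma adjusted p = 0.324). Against vehicle, CCl4+Rot livers lay wholly above for 3 genes of this list and wholly below for 2, when 21.1% of all probe sets were separated. They lay below for Colec11, at 11.53 to 11.80 against 11.91 to 12.01, and above, besides Wnt2, for Gata4, a transcription factor of sinusoidal identity, by 0.34, and for Bmp6, the endothelial signal that sets hepcidin, by 0.52 (limma adjusted p = 0.667 and 0.670).

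Of 24 measured pan-endothelial genes (of 26 listed; Cdh5 and Robo4 were not analysed here), 9 were present on every array and Flt1, Sox7 and Myct1 on none. limma called 0 in each comparison, with 3, 0 and 1 at an unadjusted p below 0.05, against 3837, 2057 and 2580 of all 31042 probe sets. CCl4 livers were wholly above vehicle livers for 2 genes of the list and wholly below for 3, against 18.3% of all probe sets separated either way and 7.14% downward. The 3 lower were Clec14a, an endothelial lectin, by -0.54 (limma adjusted p = 0.363), Tek, the angiopoietin receptor TIE2, by -0.26 (0.523), and Mmrn2, an extracellular ligand of CLEC14A and CD93, by -0.25 (0.609). Tek read 9.71, 9.70 and 9.95 in vehicle, 9.60, 9.60 and 9.36 in CCl4, and 9.70, 9.84 and 9.78 in CCl4+Rot livers, so CCl4 livers lay below both other groups, which overlapped. CCl4+Rot minus CCl4 was 0.25 for Tek (limma adjusted p = 0.765) and -0.16 for Cd93 (limma adjusted p = 0.864). Against vehicle, CCl4+Rot livers lay below for Clec14a (-0.42, limma adjusted p = 0.677) and Ptprb, the endothelial phosphatase that restrains TIE2 (-0.34, 0.785), and above for Nos3, endothelial nitric oxide synthase (0.53, 0.785).

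Of the 13 VEGF and angiopoietin ligands and receptors, all measured, 6 were present on every array and Pgf, Flt1, Flt4 and Angpt1 on none. limma called 0. At an unadjusted p below 0.05 there were 5, 0 and 3 in the 3 comparisons, against 3837, 2057 and 2580 of all 31042 probe sets. Vegfa, the ligand of KDR, read 11.78, 11.87 and 11.70 in vehicle, 11.39, 11.22 and 11.25 in CCl4, and 11.74, 11.70 and 11.42 in CCl4+Rot livers. CCl4 livers lay below both other groups, by -0.50 against vehicle (limma adjusted p = 0.301), while CCl4+Rot minus CCl4 was 0.33 (limma adjusted p = 0.752). A second Vegfa probe set, present on 5 arrays, gave -0.15 and -0.03. Vegfb, a ligand of VEGF receptor 1, lay above vehicle in both injured groups, by 0.98 in CCl4 (limma adjusted p = 0.240) and 0.54 in CCl4+Rot livers (limma adjusted p = 0.627). The co-receptor Nrp2 was 0.82 higher in CCl4 than in vehicle livers (limma adjusted p = 0.404), and in CCl4+Rot livers Vegfc, the lymphatic growth factor, and Nrp1 lay 0.48 and 0.61 above vehicle (limma adjusted p = 0.513 and 0.551).

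**Figure D3:**
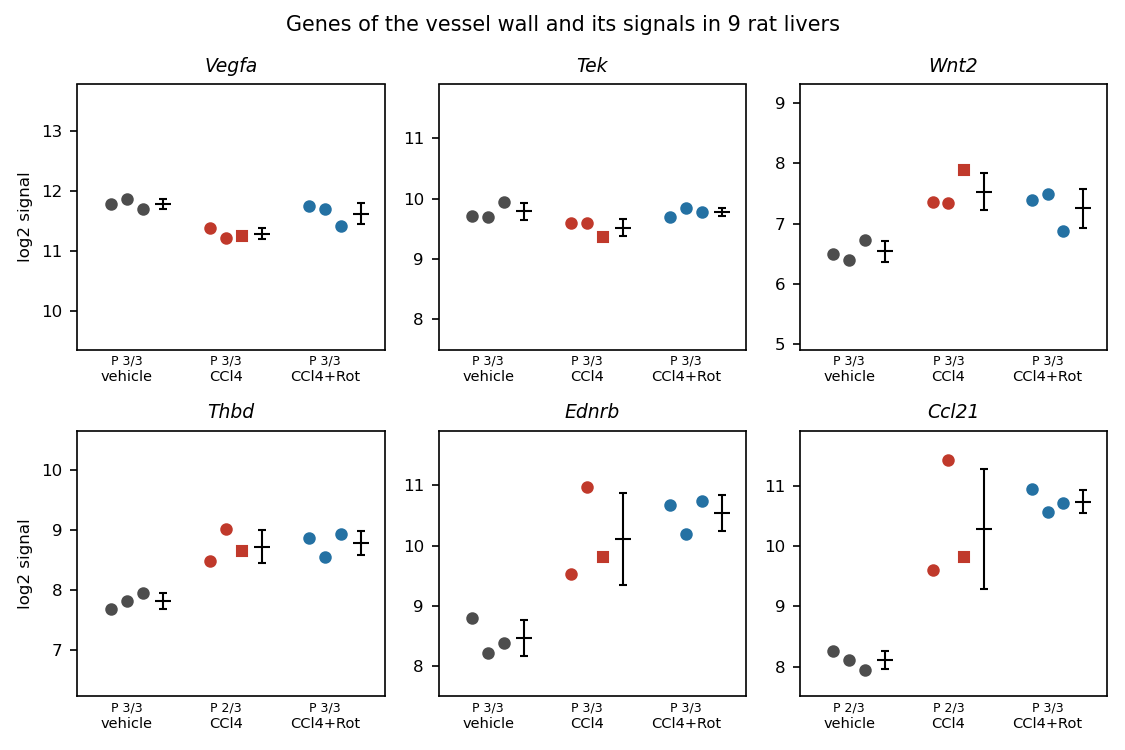
Log2 signal of 6 other genes of the vessel wall and its signals, each point 1 array, with group mean and SD (n = 3), drawn as for the markers (red square, CCl4 replicate 3). Vegfa and Tek of CCl4 livers lie below both other groups, and Wnt2, Thbd, Ednrb and Ccl21 of vehicle livers lie below both injured groups.

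Of 11 measured genes of leukocyte adhesion and vessel tone, 5 were present on every array and limma called 0. Vcam1 and Ackr1, of the 13 listed, were not analysed here. At an unadjusted p below 0.05 there were 4, 0 and 5, against 3837, 2057 and 2580 of all 31042 probe sets. Ednrb, an endothelin receptor of endothelial and stellate cells, read 8.79, 8.22 and 8.38 in vehicle, 9.53, 10.98 and 9.81 in CCl4, and 10.67, 10.19 and 10.74 in CCl4+Rot livers. Both injured groups lay above vehicle, by 1.65 (limma adjusted p = 0.231) and 2.08 (limma adjusted p = 0.192) on the log2 scale. With trend and robust variance estimation, limma called both (adjusted p = 0.0322 and 0.0103), among 348 and 241 of all 31042 probe sets. Thbd, thrombomodulin, the endothelial anticoagulant receptor, read 7.69, 7.81 and 7.95 in vehicle, 8.49, 9.02 and 8.65 in CCl4, and 8.86, 8.55 and 8.93 in CCl4+Rot livers. It was 0.90 higher in CCl4 (limma adjusted p = 0.221) and 0.96 higher in CCl4+Rot than in vehicle livers (limma adjusted p = 0.219, and 0.0449 with trend and robust estimation). No other alternative with adjustment called Ednrb or Thbd. Tfpi, the tissue factor inhibitor, was 0.84 higher in CCl4 than in vehicle livers by its brighter probe set (limma adjusted p = 0.354), 0.50 without CCl4 replicate 2, and -0.02 by the other probe set. Klf4, a flow-responsive transcription factor, was 0.73 higher in CCl4+Rot than in vehicle livers (limma adjusted p = 0.352). Between the injured groups, Selp, P-selectin, was -0.81 in CCl4+Rot against CCl4 livers (limma adjusted p = 0.750) and -0.44 without CCl4 replicate 3. That Selp probe set was called present on 0 vehicle, 2 CCl4 and 3 CCl4+Rot arrays, at low group means of 6.25 to 7.06. The other Selp probe set, present on 1 array, went the other way, at 0.46. Icam1, a leukocyte adhesion ligand, was 0.55 in CCl4+Rot against CCl4 livers (limma adjusted p = 0.752).

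The lymphatic list, of 5 genes all measured, had 3 present on every array and Flt4 on none, with 0 called by limma. At an unadjusted p below 0.05 there were 2, 0 and 3, against 3837, 2057 and 2580 of all 31042 probe sets. Ccl21, the chemokine by which lymphatic vessels draw in dendritic cells, read 8.26, 8.11 and 7.95 in vehicle, 9.60, 11.42 and 9.82 in CCl4, and 10.94, 10.56 and 10.71 in CCl4+Rot livers. Its probe set was called present on 2 vehicle, 2 CCl4 and 3 CCl4+Rot arrays. All injured livers lay above all vehicle livers, by 2.17 in CCl4 livers. In CCl4+Rot livers the difference was 2.63 (limma adjusted p = 0.191, and 0.0118 with trend and robust estimation). Leaving out CCl4 replicate 2 was the only other alternative with adjustment that called Ccl21. Pdpn, podoplanin, a membrane protein of lymphatic endothelium and of some fibroblasts, was 1.38 higher in CCl4 (limma adjusted p = 0.226) and 0.99 higher in CCl4+Rot than in vehicle livers (limma adjusted p = 0.425). Prox1, the lymphatic master regulator that hepatocytes also express, was -0.64 in CCl4+Rot against vehicle livers (limma adjusted p = 0.404). The fibroblast list (6 genes, 5 present on every array, Thy1 on none) moved with these, at a mean of 8.68 to 9.33 in vehicle livers, 9.81 to 10.45 after CCl4 and 9.97 to 10.09 after CCl4+Rot. Its part in the Ednrb, Pdpn and Ccl21 values was not tested.

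Over the genes of each list, the median log2 difference between CCl4 and vehicle was 0.06 for sinusoidal identity, 0.11 for pan-endothelial genes, 0.26 for VEGF and angiopoietin genes, 0.58 for adhesion and tone and 0.16 for lymphatic genes, beside 0.18 over all probe sets. Between CCl4+Rot and CCl4 the medians were -0.05, -0.08, -0.35, -0.07 and -0.38 in that order, beside -0.12. Between CCl4+Rot and vehicle they were 0.00, 0.02, 0.14, 0.47 and 0.42, beside 0.01. Over the genes present on every array, the medians were -0.04, -0.10, 0.19, 0.58 and 0.16 between CCl4 and vehicle, 0.09, 0.02, 0.12, 0.05 and -0.38 between CCl4+Rot and CCl4, and 0.00, -0.01, 0.28, 0.47 and 0.42 between CCl4+Rot and vehicle. The sign between CCl4+Rot and CCl4 therefore turned for 4 of the 5 lists, all but the lymphatic one. The background turned in the same way, from -0.12 over all probe sets to 0.02 over those present on every array.

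Groups that did not overlap between CCl4 and vehicle were found for 2 genes higher and 2 lower of 15 sinusoidal, 2 and 3 of 24 pan-endothelial, 4 and 2 of 13 VEGF and angiopoietin, 4 and 1 of 11 adhesion and tone, and 2 and 0 of 5 lymphatic genes, against 18.3% of all probe sets. Without CCl4 replicate 3 these were 4 and 2, 4 and 5, 4 and 2, 4 and 1, and 2 and 1, when the share over all probe sets was 30%. Between CCl4+Rot and CCl4 they were 0 and 0, 1 and 2, 2 and 0, 1 and 1, and 0 and 0, against 11.6%, and between CCl4+Rot and vehicle 3 and 2, 3 and 2, 5 and 1, 5 and 1, and 3 and 1, against 21.1%.

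**Figure D4:**
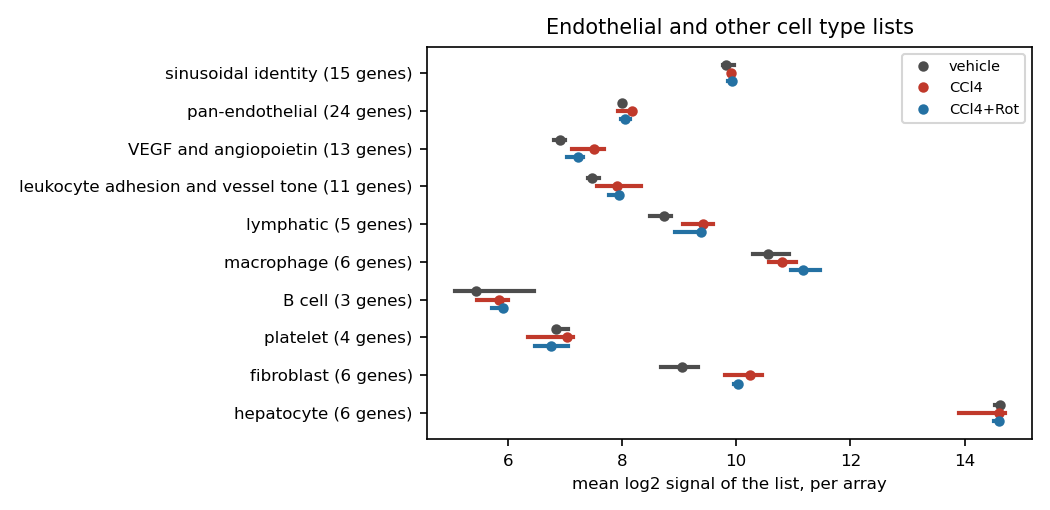
Mean log2 signal over the measured genes of each list, for vehicle, CCl4 and CCl4+Rot livers, with the line from the lowest to the highest of 3 arrays and the point at the median. Lists of sinusoidal identity (9.77 to 9.97 over all arrays) and of pan-endothelial genes (7.93 to 8.22) overlap between groups, and the fibroblast list of vehicle livers lies below both injured groups.

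The genes whose profile over the 9 arrays was most like that of a marker were found among 7057 other genes present on every array, by the root-mean-square difference of profiles centred on their own mean. For Kdr these were Cox16 at 0.042, Pon2 at 0.053 and Serinc1 at 0.058 on the log2 scale, against a median of 0.280 over all candidates. For Lyve1 they were Zbtb34 at 0.124, Rreb1 at 0.127 and Tmem53 at 0.127, against 0.398. All 3 had their lowest group mean in CCl4 livers, which a match to the Lyve1 profile selects for. Their SD in CCl4 livers was 0.386, 0.674 and 0.425 (n = 3), and that of Lyve1 was 0.616. The likeness was not repeated without CCl4 replicate 3. For Stab2 they were Ermard at 0.099, Rab12 at 0.105 and Aprt at 0.105, against 0.338. None of these 9 genes belongs to an endothelial list used here, and nothing about shared function is drawn from the likeness.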

How the data were processed

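Total RNA from 9 rat livers was hybridised to 1 array each. The authors' deposited values are a log2 signal with its detection call for each probe set, and the submitters' processing notes name MAS5 and affy, with versions not given in the sources used here. The 31099 deposited log2 values per array run from -4.49 to 15.62 over all arrays, and their antilogs share a trimmed mean of 500. The build behind the table's annotation is not given in the sources used here, so no coordinates of it are printed. The number of arrays limits the precision.

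After 57 control probe sets were dropped, limma 3.58.1 (R 4.3.3) was run on the other 31042 with 3 group means over all 9 arrays, with no covariate and no further normalization, after the script was tested on simulated data. A gene was read by its brightest probe set that names it alone. Where 1 group had no present call, a bound was computed. For Vwf and Plvap it equalled the measured ratio, which is given as an estimate with its interval. The paper's methods give the 1.5-fold threshold and no test for the arrays. The t-test used below as an alternative comes from their general statistics. Members and lists were chosen with earlier results of these data known. All markers are named. From each other list, genes called by limma are named, or otherwise up to 3 per comparison with the smallest p among those present on at least 3 arrays of either group and with groups that do not overlap. For the likeness, the 3 markers present on every array with the widest range of group means were used.

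Labels number the livers, and nothing states how they were collected, so p values measure the spread between these samples. Animal numbers shared between groups did not pair the arrays (correlations of deviations -0.090, -0.005 and -0.013). Alternatives were quantile normalization, median centring, filters on low signals, log2(signal + 32), fits of 2 groups, trend and robust variance estimation (statmod 1.5.0), the methods' t-test, a replicate block, other readings of genes with several probe sets, and leaving out each array. Further settings, medians over markers present in each group and counts without CCl4 replicate 3, were chosen after seeing the data.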

Additional observations from a re-analysis of the deposited data

How the results depend on the processing

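No marker was called by limma under any alternative, and the methods' t-test, unadjusted, called 0 between CCl4 and vehicle, 0 between CCl4+Rot and CCl4 and 1 (Vwf) between CCl4+Rot and vehicle. Over all probe sets, limma called 0, 1 and 8 in these comparisons, 348, 1 and 241 with trend and robust estimation, 78, 0 and 63 among probe sets present on at least 3 arrays, 4, 0 and 22 without the 30% lowest, 4, 0 and 20 with log2(signal + 32), 0, 0 and 3 after quantile normalization, 0, 1 and 2 after median centring, 0, 0 and 1 with only the groups compared, and from 0 to 24 when 1 array was left out (24 for CCl4+Rot minus vehicle without CCl4 replicate 2). The t-test called 1774, 851 and 2126 unadjusted and 0 after Benjamini-Hochberg adjustment. The replicate block gave 0, 1 and 8 and 0 markers. At an unadjusted p below 0.05, limma had 3837, 2057 and 2580 probe sets. Median centring shifted all values by -0.36, 0.25 and -0.11 in the 3 comparisons.

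Centring moved the median of the sinusoidal receptors to -0.37 for CCl4 minus vehicle and 0.43 for CCl4+Rot minus CCl4, and that of the vascular markers to -0.54 and 0.77. With probe sets present on at least 3 arrays, or on at least 1 array of each group, the vascular median was 0.13 for CCl4+Rot minus CCl4 and -0.02 for CCl4+Rot minus vehicle. Signs of small differences turned. For CCl4 minus vehicle, quantile normalization gave -0.07 for Stab1, 0.01 for Fcgr2b and -0.06 for Pecam1, centring gave -0.30 for Stab1, -0.10 for Stab2 and -0.31 for Pecam1, and leaving out an array gave -0.06 to 0.18 for Stab1, -0.55 to 0.04 for Lyve1, -0.22 to 0.12 for Fcgr2b and -0.21 to 0.20 for Pecam1. For CCl4+Rot minus CCl4, quantile normalization gave 0.00 for Kdr, centring 0.09 for Cd93, and leaving out an array -0.06 to 0.22 for Stab2 and -0.02 to 0.18 for Kdr. For CCl4+Rot minus vehicle, Lyve1 was -0.05 with centring, -0.01 as the mean of its probe sets and -0.05 to 0.15 with an array left out. The cause was not tested. Of 1280 values under alternatives, 23 single-gene differences turned sign. Signal near background limits Vwf and Plvap.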
